A study of Mus musculus with 22 samples.

Results

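The guanylate-binding proteins (GBPs) and immunity-related GTPases (IRGs) described here are 10 mouse genes chosen by name, *Gbp2*, *Gbp3*, *Gbp4*, *Gbp5*, *Gbp6*, *Gbp7*, *Igtp*, *Irgm1*, *Irgm2* and *Iigp1*, out of 55487 gene identifiers in 2 tables of read counts. All 10 were found in both tables, and all 10 passed the filter on low counts, which left 17869 genes of the untreated mice and 18899 of the AAV mice. The 22 libraries were made from brown adipose tissue (BAT), the fat depot that burns fuel to produce heat, with 1 library per mouse. CPEB2-KO mice lack the RNA-binding protein CPEB2 in every tissue and were compared with CPEB2-WT littermates of the C57BL/6 background. The mice were labelled male and fed a chow diet with 9% fat. Untreated mice, 5 WT and 5 KO, were 21 to 25 weeks old and fasted before collection. The AAV cohort held 3 mice for each of 4 combinations of genotype and virus, written as WT + AAV-GFP and so forth. These mice received adeno-associated virus of serotype AAV2/8 in the interscapular BAT at 16 weeks, and the tissue was taken 9 weeks later, at 25 weeks. The virus carried either green fluorescent protein or PRDM16, a transcriptional regulator of brown adipocyte identity. Every mouse of the AAV cohort carried a virus, so a mouse without virus can be found only in the other cohort. The promoter that drives the viral genes is not given in the sources used here.

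GBPs and IRGs are GTPases of cell-autonomous immunity, the defence that a cell mounts against microbes within it. Their genes are among those most strongly induced by interferon-gamma, a cytokine of T cells and natural killer (NK) cells, which binds the receptor of IFNGR1 and IFNGR2 and acts through the kinases JAK1 and JAK2. Regulatory elements of interferon-induced genes include the gamma-activated site (GAS) and the interferon-stimulated response element (ISRE), the latter a kind of element that IRF1 recognises. The products assemble on the vacuoles that hold parasites or bacteria and disrupt them. *Iigp1* encodes an effector IRG, and *Irgm1*, *Irgm2* and *Igtp* encode regulatory IRGs that guard the cell's own membranes against effector IRGs. Low levels of these genes are found in many tissues, where macrophages, endothelial cells and infiltrating lymphocytes are among the cells that take part in the response.

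The stretches before 3 of the start sites are shown because the members share interferon-response motifs there and their levels moved together across the AAV mice. The windows are the 250 bases upstream of RefSeq transcript starts in GRCm38.p6, on the gene's own strand and written 5′ to 3′, with capitals for a GAS motif (TTCNNNGAA) or an ISRE motif (GAAANNGAAA) found on either strand. The *Gbp7* window lies at chr3:142530086-142530335 on the plus strand and holds GAS motifs 106 and 87 bases before the start and an ISRE motif 53 bases before it. The *Igtp* window lies at chr11:58199306-58199555 on the plus strand, with a GAS motif at 45 and an ISRE motif at 34 bases before the start. The *Irgm2* window lies at chr11:58214727-58214976 on the plus strand, with a GAS motif at 75 and an ISRE motif at 64 bases before the start.
Gbp7: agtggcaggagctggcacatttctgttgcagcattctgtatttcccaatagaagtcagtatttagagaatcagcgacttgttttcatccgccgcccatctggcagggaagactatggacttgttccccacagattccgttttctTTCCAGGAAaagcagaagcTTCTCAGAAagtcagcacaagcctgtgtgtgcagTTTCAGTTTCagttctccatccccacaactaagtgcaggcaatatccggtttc
Igtp: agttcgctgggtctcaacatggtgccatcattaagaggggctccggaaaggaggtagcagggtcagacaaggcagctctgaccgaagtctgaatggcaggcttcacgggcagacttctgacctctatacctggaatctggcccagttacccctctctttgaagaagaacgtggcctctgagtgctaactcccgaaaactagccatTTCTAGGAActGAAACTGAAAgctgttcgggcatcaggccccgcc
Irgm2: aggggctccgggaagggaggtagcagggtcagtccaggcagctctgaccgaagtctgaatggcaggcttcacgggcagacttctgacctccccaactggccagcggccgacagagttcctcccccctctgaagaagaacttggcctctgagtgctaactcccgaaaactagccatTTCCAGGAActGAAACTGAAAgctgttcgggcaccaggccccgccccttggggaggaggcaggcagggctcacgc
Windows were examined for 7 members, with 8 start sites, and none was examined for *Gbp4*, *Gbp6* and *Iigp1*. All 7 held an ISRE motif, at 7 of the 8 start sites, and 4 of them, *Gbp5*, *Gbp7*, *Igtp* and *Irgm2*, also held a GAS motif. Of 32851 promoter windows of the same length, 2.98% held an ISRE motif, 7.02% a GAS motif and 0.33% both. The *Igtp* and *Irgm2* windows share long stretches of sequence, so their motifs are not independent. A match describes the letters and is not evidence of binding.

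The members lie in groups on 4 chromosomes (GRCm38, GENCODE M21 annotation). *Gbp5* (ENSMUSG00000105504, 142493978 to 142522344), *Gbp7* (ENSMUSG00000040253, 142530342 to 142550149), *Gbp3* (ENSMUSG00000028268, 142560026 to 142573209) and *Gbp2* (ENSMUSG00000028270, 142620602 to 142638008) follow each other on the plus strand of chromosome 3 within 144.0 kb. *Gbp4* (ENSMUSG00000079363, 105115767 to 105139586) and *Gbp6* (ENSMUSG00000104713, 105270702 to 105293698) lie on the minus strand of chromosome 5, within 177.9 kb. On chromosome 11, *Irgm1* (ENSMUSG00000046879, 48861968 to 48871683, minus strand) stands apart from *Igtp* (ENSMUSG00000078853, 58199556 to 58207591, plus strand) and *Irgm2* (ENSMUSG00000069874, 58199618 to 58222782, plus strand), which share 162 exonic bases. *Iigp1* (ENSMUSG00000054072, 60376027 to 60392634, plus strand) is on chromosome 18. All 10 are protein-coding genes. Reads of close relatives can be split or lost in counting, which matters most for *Gbp6*. Of its 50-base exon stretches, 70.65% also occur in other genes, 64.98% in *Gm43302* and 45.95% in *Gbp10*. The share was 12.74% for *Gbp7*, 11.77% for *Igtp*, all of it with *Irgm2*, 7.77% for *Irgm2*, 7.7% for *Gbp4* and at most 3.75% for each of the other 5.

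A library held 55320927 to 162721202 counts in untreated mice and 61636889 to 143005309 in AAV mice, and a member had between 124 and 13788 reads in a library. Levels are given as CPM, counts per 1000000 reads of the library after TMM scaling. In the AAV cohort the targeted gene followed the labels, with 10.5 to 13.96 CPM of *Cpeb2* in the 6 WT and 4.33 to 5.55 CPM in the 6 KO mice, and *Prdm16* lay at 23.9 to 40.2 CPM with AAV-GFP and 45.9 to 128 CPM with AAV-PRDM16. The Y-linked *Ddx3y* was at 63.3 to 90.0 CPM in these 12 mice. In the untreated cohort the library labelled KO replicate 1 had 11.7 CPM of *Cpeb2*, within the WT range of 7.69 to 14.3 CPM, while the other 4 KO libraries had 2.10 to 5.78 CPM. *Ddx3y* was at 0 to 0.564 CPM and *Xist* at 104 to 305 CPM in 6 of the 10 untreated libraries labelled male (WT replicates 3 and 5, KO replicates 1, 3, 4 and 5), and WT replicates 1 and 2 had 0.692 and 0.956 CPM of *Socs3* against 7.16 to 118 CPM in the other 8. Results of the untreated cohort are also given without KO replicate 1, without WT replicates 1 and 2 or with Y-linked transcripts as a covariate. Leaving out all 6 libraries with high *Xist* would leave 1 KO library, and such a fit was not run. BAT itself was present throughout, with brown adipocyte markers summing to 6530 CPM or more in every library.

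All members were expressed in BAT, and their levels differed by an order of magnitude when compared per kilobase of exon. Over the 12 AAV libraries the mean level was highest for *Gbp2* (13.6 CPM per kb), an isoprenylated GBP of pathogen-containing vacuoles. It was followed by *Igtp* (8.23), *Gbp6* (6.74), *Irgm2* (6.21), *Gbp3* (6.13), *Iigp1* (4.49), *Gbp7* (3.99), *Irgm1* (2.10), *Gbp4* (1.99) and *Gbp5* (1.13 CPM per kb). This order is that of the 4 groups pooled, and with AAV-PRDM16 alone *Gbp6* (4.53 CPM per kb) stood above *Igtp* (3.65), and *Iigp1* (1.67) below *Gbp7* (2.79) and *Gbp4* (1.78). The order in the 10 untreated libraries also ran from *Gbp2* (7.67 CPM per kb) to *Gbp5* (0.48 CPM per kb), with *Igtp* next to *Gbp2* at 4.19. The ranges of all 9 neighbouring pairs in each order overlapped. Within a library, *Gbp2* exceeded *Igtp* in 12 of 12 AAV and 10 of 10 untreated libraries, and *Gbp4* exceeded *Gbp5* in 12 of 12 and 10 of 10, whereas *Igtp* exceeded *Gbp6* in 6 of 12 and *Irgm2* exceeded *Gbp3* in 3 of 12. The 2 cohorts were prepared and scaled separately, so a level in one cannot be set against the other.

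**Figure D1:**
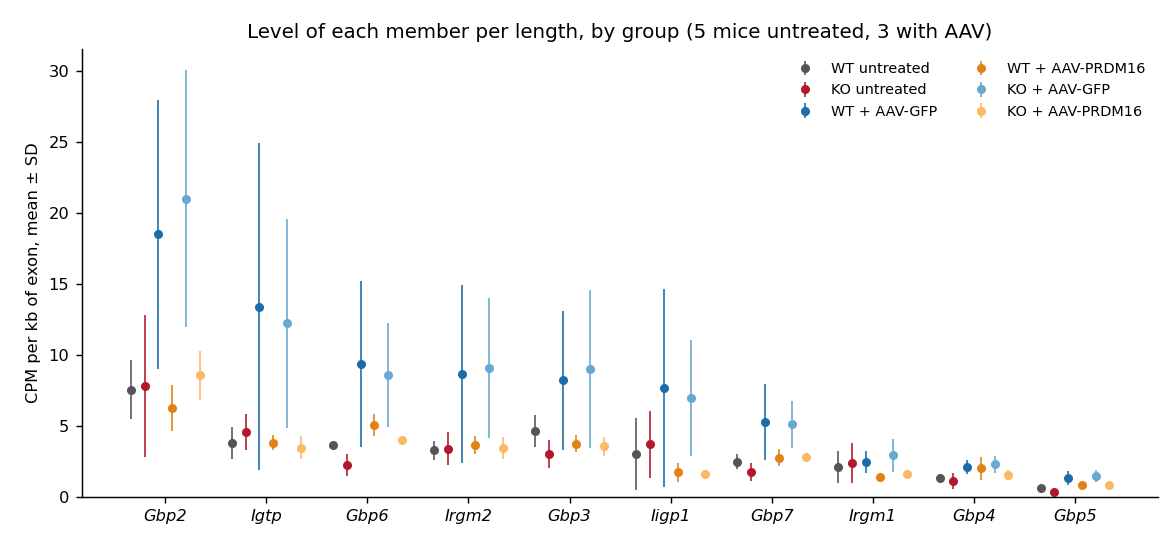
Mean level of each member in CPM per kilobase of exon (vertical axis, linear) in the 6 groups, with bars of ± 1 SD over 5 untreated or 3 AAV mice. *Gbp2* has the highest and *Gbp5* the lowest mean in each group, and within *Gbp2*, *Igtp* and *Iigp1* the bars of the AAV-GFP groups are wider than those of the other groups.

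The first question of the AAV cohort is what differed when the virus carried PRDM16 in place of GFP. All 10 members were lower with AAV-PRDM16, in WT as in KO mice, and the most marked difference was in *Iigp1*, whose level averaged over genotypes was 4.37-fold lower. *Igtp* was 3.52-fold, *Gbp2* 2.69-fold, *Irgm2* 2.50-fold and *Gbp3* 2.36-fold lower. None of these differences passed an FDR of 0.05 in edgeR's quasi-likelihood test, and the values of single mice show where the spread lay.

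*Iigp1*, the effector IRG, had 11.4, 90.1 and 32.4 CPM in the WT + AAV-GFP mice (replicates 1 to 3) and 13.1, 5.78 and 11.2 CPM in the WT + AAV-PRDM16 mice. It had 31.0, 22.9 and 67.6 CPM in the KO + AAV-GFP mice and 8.49, 9.18 and 10.7 CPM in the KO + AAV-PRDM16 mice. Both AAV-PRDM16 groups were low and narrow, the KO groups did not overlap, and in WT a single AAV-GFP mouse, replicate 1, lay within the AAV-PRDM16 range. The log2 fold change (log2FC) of *Iigp1* was -2.15 (SE 0.62, FDR 0.459) in WT, -2.10 (SE 0.62, FDR 0.368) in KO and -2.13 (SE 0.44, FDR 0.0586) averaged over the genotypes by edgeR.

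Among the regulatory IRGs, *Igtp* had 6.19, 52.2 and 22.8 CPM with AAV-GFP and 8.54, 6.57 and 8.09 CPM with AAV-PRDM16 in WT. In KO mice *Igtp* had 17.95, 14.4 and 41.8 CPM with AAV-GFP and 5.42, 6.84 and 8.79 CPM with AAV-PRDM16. The picture was that of *Iigp1*, with 1 low WT + AAV-GFP mouse and KO groups that did not overlap. The averaged log2FC of *Igtp* was -1.82 (SE 0.42, edgeR FDR 0.0741).

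*Irgm2* had 11.8, 57.3 and 26.6 CPM in the WT + AAV-GFP mice, 16.0, 11.3 and 13.4 CPM in the WT + AAV-PRDM16 mice, 26.7, 19.6 and 54.2 CPM in the KO + AAV-GFP mice and 10.2, 11.9 and 16.0 CPM in the KO + AAV-PRDM16 mice. Its WT groups overlapped through replicate 1 of WT + AAV-GFP, and its averaged log2FC was -1.32 (SE 0.34, edgeR FDR 0.108). *Irgm1* differed less but more evenly, with 9.21, 17.9 and 15.6 CPM in the WT + AAV-GFP mice, 8.20, 7.97 and 8.17 CPM in the WT + AAV-PRDM16 mice, 14.2, 12.0 and 24.6 CPM in the KO + AAV-GFP mice and 8.40, 8.61 and 11.3 CPM in the KO + AAV-PRDM16 mice. *Irgm1*, whose product also takes part in autophagy, overlapped between the viruses in neither genotype, and its averaged log2FC was -0.83 (SE 0.19, edgeR FDR 0.0782).

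Of the GBPs, *Gbp2* had 21.2, 68.5 and 49.97 CPM in the WT + AAV-GFP mice and 13.3, 13.6 and 20.4 CPM in the WT + AAV-PRDM16 mice. In KO mice *Gbp2* had 52.8, 30.2 and 75.6 CPM with AAV-GFP and 17.97, 20.3 and 26.3 CPM with AAV-PRDM16. The viruses did not overlap in either genotype, with the lowest WT + AAV-GFP mouse just above the highest WT + AAV-PRDM16 mouse. Over both genotypes *Gbp2* averaged 49.7 CPM ± 21.1 (SD, n = 6) with AAV-GFP and 18.6 CPM ± 4.86 (SD, n = 6) with AAV-PRDM16, a log2FC of -1.43 (SE 0.28, edgeR FDR 0.0543), the lowest FDR among the members.

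*Gbp3* had 11.6, 43.4 and 25.4 CPM in the WT + AAV-GFP mice, 14.2, 10.4 and 12.1 CPM in the WT + AAV-PRDM16 mice, 23.9, 14.6 and 49.7 CPM in the KO + AAV-GFP mice and 9.76, 10.9 and 14.1 CPM in the KO + AAV-PRDM16 mice. *Gbp7*, whose product is linked to assembly of the phagocyte NADPH oxidase, had 15.2, 45 and 28.4 CPM, then 19.0, 12.1 and 15.3 CPM, in the WT groups with AAV-GFP and AAV-PRDM16, and 25.2, 21.6 and 39.2 CPM, then 14.2, 16.2 and 17.2 CPM, in the KO groups. Both genes were separated by virus in KO and overlapped in WT, again through replicate 1 of WT + AAV-GFP. The averaged log2FC was -1.24 (SE 0.32, edgeR FDR 0.110) for *Gbp3* and -0.90 (SE 0.23, edgeR FDR 0.110) for *Gbp7*.

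*Gbp5*, which is tied to activation of the NLRP3 inflammasome, was the lowest expressed member per length. It had 5.87, 12.4 and 8.25 CPM in the WT + AAV-GFP mice, 6.33, 4.07 and 6.05 CPM in the WT + AAV-PRDM16 mice, 8.92, 7.53 and 13.1 CPM in the KO + AAV-GFP mice and 5.20, 5.40 and 6.53 CPM in the KO + AAV-PRDM16 mice. The groups were apart in KO and overlapped in WT, and the averaged log2FC was -0.74 (SE 0.20, edgeR FDR 0.120). *Gbp6* had 24.7, 93.5 and 48.7 CPM in the WT + AAV-GFP mice, 35.4, 28.6 and 26.6 CPM in the WT + AAV-PRDM16 mice, 44.9, 33.1 and 75.2 CPM in the KO + AAV-GFP mice and 23.6, 21.7 and 25.8 CPM in the KO + AAV-PRDM16 mice. *Gbp6* was likewise apart in KO and not in WT, with an averaged log2FC of -0.996 (SE 0.28, edgeR FDR 0.140). *Gm43302*, with which it shares most of its exonic sequence, ranged from 0 to 43.8 CPM in the same libraries, so how reads were divided between them is uncertain.

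*Gbp4* stood apart from the other members. It had 13.8, 20.2 and 13.6 CPM in the WT + AAV-GFP mice, 21.9, 10.8 and 12.4 CPM in the WT + AAV-PRDM16 mice, 12.8, 16.9 and 21.96 CPM in the KO + AAV-GFP mice and 14.6, 10.3 and 10.0 CPM in the KO + AAV-PRDM16 mice. The viruses overlapped in both genotypes. Its log2FC was -0.07 (SE 0.28, edgeR FDR 0.987) in WT, where its sign turned when replicate 2 of WT + AAV-GFP was left out (0.14), and -0.57 (SE 0.28, edgeR FDR 0.881) in KO.

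**Figure D2:**
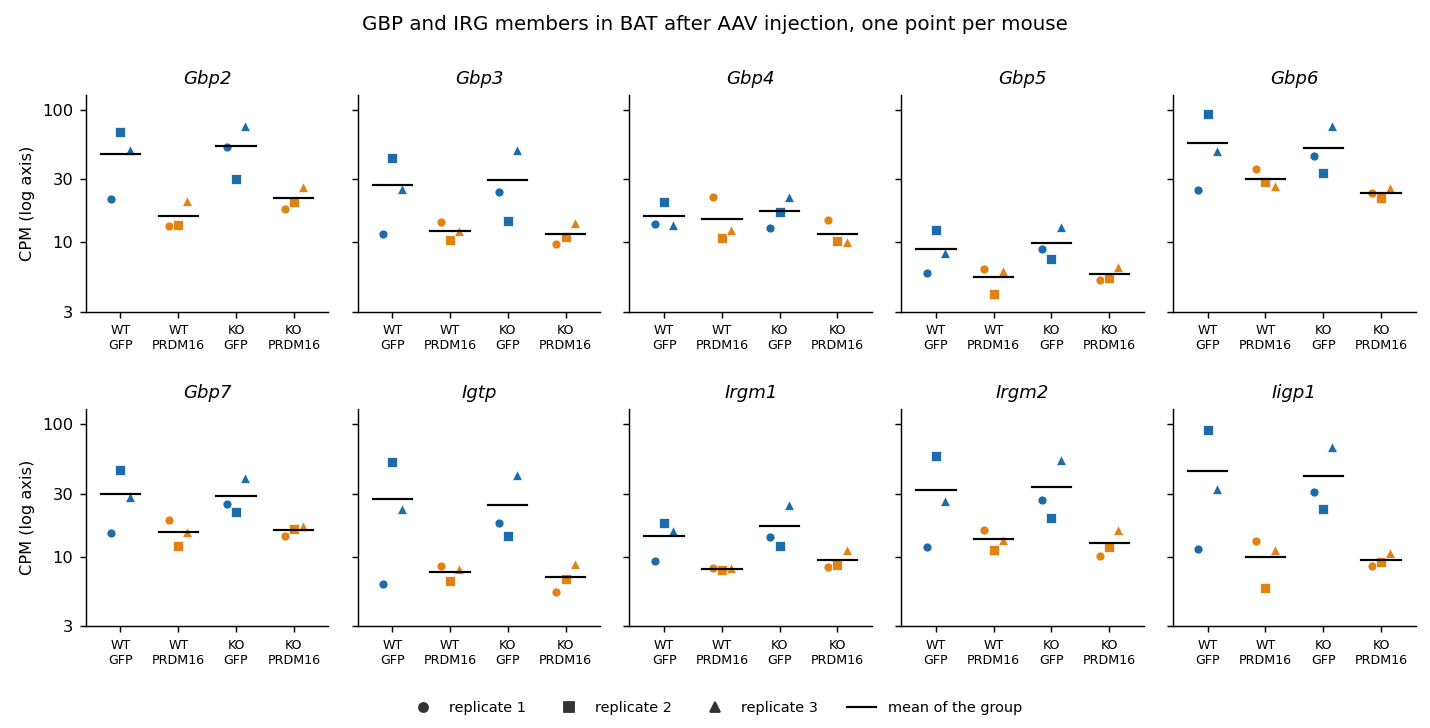
Level of each member in CPM (vertical axis, log scale) in the 12 AAV mice, with a point for each mouse, shapes for the replicate numbers and a line for the group mean of 3. Apart from *Gbp4*, where 1 AAV-PRDM16 mouse is near the top, the AAV-PRDM16 points (orange) lie in the lower part of each panel, replicate 2 of WT + AAV-GFP and replicate 3 of KO + AAV-GFP lie highest for most members, and replicate 1 of WT + AAV-GFP lies near the AAV-PRDM16 points.

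The top of the range was held by 2 libraries. Replicate 2 of WT + AAV-GFP was the highest of the 12 for 5 members and replicate 3 of KO + AAV-GFP for the other 5, and the latter was among the top 2 for all 10. Replicate 1 of WT + AAV-GFP had a median rank of 9 from the top. Summed over the 10 members, the levels were 131, 501 and 272 CPM in the WT + AAV-GFP mice, 156, 111 and 134 CPM in the WT + AAV-PRDM16 mice, 258, 192.7 and 463 CPM in the KO + AAV-GFP mice and 118, 121.3 and 147 CPM in the KO + AAV-PRDM16 mice. The AAV-GFP mice thus differed among themselves more than the AAV-PRDM16 mice did, in both genotypes.

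In WT mice 10 of 10 members had a log2FC below 0 for AAV-PRDM16 against AAV-GFP, where 52.1% of all genes did, with a median of -1.04 against -0.01 over all genes. None passed an FDR of 0.05 by edgeR (0% of all genes), and 9 were lower at an unadjusted p under 0.05 (5.19% of all genes), with FDRs from 0.459 upward. The study's threshold, a 2-fold difference or more with an FDR up to 0.5, was set in the paper for untreated KO against WT. Applied here to the AAV cohort, it gave 2 lower members, *Gbp2* and *Iigp1* (1.31% of all genes). In 2 members, *Gbp2* and *Irgm1*, the groups did not overlap (7.76% of all genes). An exact permutation test of 3 mice against 3 cannot give a p below 0.1, and these 2 members reached it. The count at an unadjusted p under 0.05 was 2 in place of 9 and the median -0.55 without replicate 2 of WT + AAV-GFP, and the count was 4 without replicate 2 and 6 without replicate 3 of WT + AAV-PRDM16.

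In KO mice 10 of 10 members also had a log2FC below 0 (51.5% of all genes), with a median of -1.21 against -0.01 over all genes. None passed an FDR of 0.05 by edgeR (0% of all genes), while 9 were lower at an unadjusted p under 0.05 (5.10% of all genes) and 4 were lower at the study's threshold (2.03% of all genes). The AAV-PRDM16 mice lay below all AAV-GFP mice for 9 members, all but *Gbp4* (6.05% of all genes), and each of these 9 reached 0.1 in the exact permutation test. Without replicate 3 of KO + AAV-GFP the count at an unadjusted p under 0.05 was 2 and the median -0.73. The counts at the study's threshold also moved with single libraries. In WT the count was 8 without replicate 1 of WT + AAV-GFP and 0 without any other library of the WT groups. In KO it was 8 without replicate 2 and 0 without replicate 3 of KO + AAV-GFP, and 0 without any library of KO + AAV-PRDM16. For fits with a library left out, in WT or KO, no share of all genes was computed at this threshold or at an unadjusted p under 0.05. DESeq2 called 1 member in each genotype, *Gbp2*, with adjusted p-values of 0.00705 in WT and 0.0365 in KO. Over all 18899 genes it called 134 lower and 18 higher in WT, and 247 lower and 19 higher in KO.

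Averaged over genotypes, 10 of 10 members were lower (51.6% of all genes), with a median log2FC of -1.12 against -0.01 over all genes. At an unadjusted p under 0.05, 9 members were lower by edgeR (7.02% of all genes), all but *Gbp4*, and 5 were lower at the study's threshold (4.24% of all genes). None passed an FDR of 0.05, which 0.0370% of all genes did. When the virus labels were permuted within each genotype, an exact test with 400 arrangements gave two-sided p-values of 0.005 for *Gbp2* and *Irgm1*, the smallest it can give, 0.01 for *Iigp1*, 0.015 for *Gbp5* and *Gbp7*, 0.02 for *Igtp* and *Irgm2*, 0.025 for *Gbp3*, 0.03 for *Gbp6* and 0.17 for *Gbp4*, none of them adjusted for the 10 members. DESeq2 called 8 members, all but *Gbp4* and *Gbp6*, with adjusted p-values of 1.1e-05 for *Gbp2* and 0.000887 for *Iigp1*. It also called more genes in all, 561 lower and 41 higher of 18899, where edgeR called 7 lower. Leaving out replicate 1 of WT + AAV-GFP gave 9 members at an FDR of 0.05 by edgeR, with FDRs of 0.0111 to 0.0407, and leaving out any other library gave none. Without replicate 1 of WT + AAV-GFP, 349 of 19466 genes were lower and 3 higher at this FDR.

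The virus effect was not shown to differ between genotypes. The interaction of genotype and virus had an FDR of 0.9998 for every member by edgeR, with 0 of 10 at an unadjusted p under 0.05 (3.19% of all genes) and 0% of all genes at an FDR of 0.05. The standard errors of the interaction ran from 0.39 to 0.84 on the log2 scale. *Gbp4*, at -0.49 (SE 0.40), had an unadjusted edgeR p of 0.239, so differences between WT and KO somewhat above these standard errors were not detectable either. KO + AAV-PRDM16 mice were also set against WT + AAV-GFP mice, mutants given PRDM16 against control animals. All 10 members had a log2FC below 0, 9 at an unadjusted p under 0.05 (4.42% of all genes), and 3 were lower at the study's threshold (0.603% of all genes). None passed an FDR of 0.05 (0.00529% of all genes), and only for *Iigp1* were the groups apart (7.09% of all genes). The WT + AAV-GFP mice are shared with the comparison within WT and the KO + AAV-PRDM16 mice with that within KO. Without replicate 2 of WT + AAV-GFP the count at an unadjusted p under 0.05 was 1, and it was 3 without replicate 1 of KO + AAV-PRDM16. The count at the study's threshold was 7 without replicate 1 of WT + AAV-GFP and 0 without either of the other WT + AAV-GFP mice. For these fits with a library left out, the share of all genes was not computed.

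**Figure D3:**
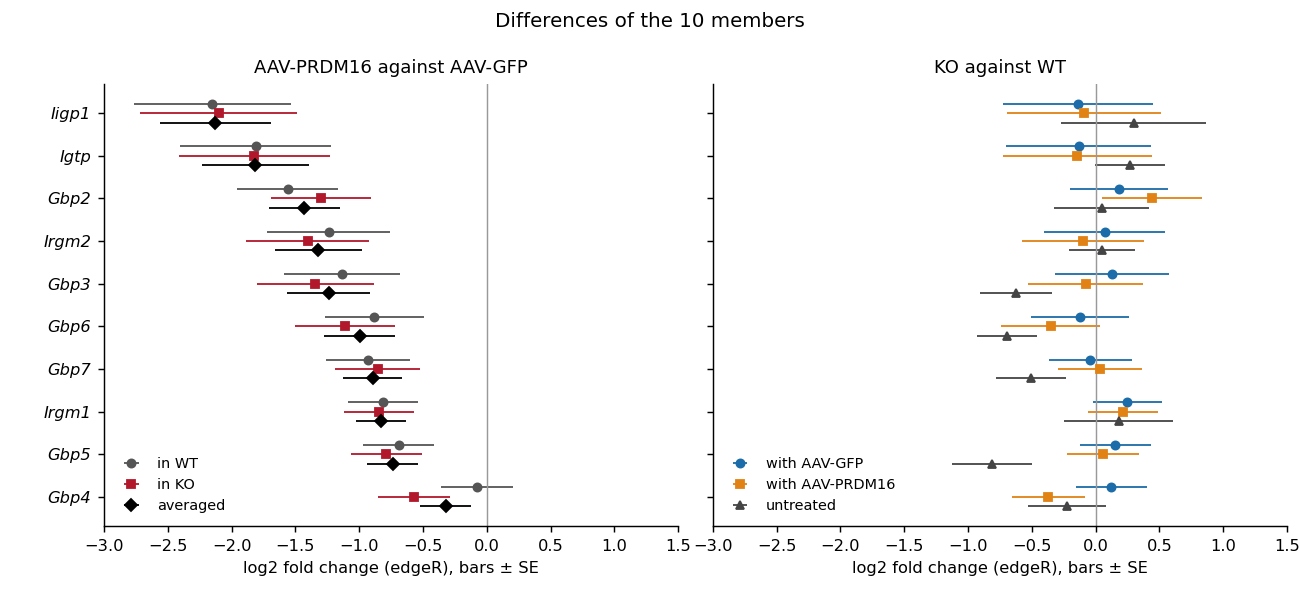
log2 fold change of each member by edgeR (horizontal axis) with bars of ± 1 SE, for AAV-PRDM16 against AAV-GFP in WT, in KO and averaged (left) and for KO against WT in the 3 settings (right). All averaged virus effects lie left of 0, from -2.13 for *Iigp1* to -0.32 for *Gbp4*, while the genotype effects scatter around 0 apart from the lower untreated values of *Gbp5*, *Gbp6* and *Gbp3*.

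The pathway that leads to these genes was examined by role, for the averaged effect of AAV-PRDM16 against AAV-GFP. The lists hold none of the members, and they were chosen with earlier results of these data known. Of 9 interferon ligands only *Ifng*, the interferon-gamma gene, had enough reads to be tested. It was at 0, 0.40 and 0.0761 CPM in the WT + AAV-GFP mice, 0 in all 3 WT + AAV-PRDM16, 0.0447, 0.0987 and 0.396 CPM in the KO + AAV-GFP mice and 0, 0.0925 and 0 CPM in the KO + AAV-PRDM16 mice. Its highest values were in the 2 mice with the highest member levels, and with 1 group at 0 no fold is given (edgeR FDR 0.275). The other 8 ligands of the list, the interferon-beta gene *Ifnb1* among them, were at 0 CPM in every library.

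Of 11 receptors and signal transducers, 10 were lower with a median log2FC of -0.15 and 3 were at an unadjusted p under 0.05. Among these, *Irf1* passed an FDR of 0.05. *Irf1* encodes a transcription factor that is itself induced by interferon-gamma and in turn drives GBP genes. It had 28.6, 24.0 and 27.9 CPM in the WT + AAV-GFP mice, 15.5, 15.3 and 14.9 CPM in the WT + AAV-PRDM16 mice, 21.96, 22.2 and 27.7 CPM in the KO + AAV-GFP mice and 19.2, 18.8 and 16.1 CPM in the KO + AAV-PRDM16 mice. All 6 AAV-GFP mice lay above all 6 AAV-PRDM16 mice, and replicate 1 of WT + AAV-GFP, low for the members, was the highest of all for *Irf1*. The log2FC of *Irf1* was -0.61 (SE 0.08, edgeR FDR 0.0453), between -0.65 and -0.56 in all 17 alternatives, of which 6 kept the FDR at or under 0.05 and the others gave up to 0.141. The kinase gene *Jak1* was not called, at -0.02 (SE 0.07, edgeR FDR 0.986).

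Of the brakes of interferon signalling, 4 of 5 were lower with a median log2FC of -0.65, 2 were at an unadjusted p under 0.05 and none was called. The highest expressed of them were the phosphatase gene *Ptpn2* (log2FC 0.04) and *Pias1* (-0.07). Of the other GBP and IRG genes, 16 of 18 were tested, and all 16 were lower with a median log2FC of -1.48, 11 at an unadjusted p under 0.05. The best expressed of them were *Gvin1* (-0.47, SE 0.16, edgeR FDR 0.258) and *Irgq* (-0.05, SE 0.06, edgeR FDR 0.952), of which *Irgq* was nearly level between the viruses. The list includes *Gbp10*, whose reads can be confused with those of *Gbp6*. Other targets of interferon-gamma gave 16 of 16 lower with a median of -1.45 and 14 at an unadjusted p under 0.05, among them the peptide transporter gene *Tap2* (-0.44, SE 0.15, edgeR FDR 0.306), while the checkpoint ligand gene *Cd274* was at -0.08 (SE 0.11). Targets typical of type I interferon gave 16 of 16 lower with a smaller median of -0.54 and 6 at an unadjusted p under 0.05, with *Rsad2* at -0.11 (SE 0.19) and *Cmpk2* at -0.37 (SE 0.19). That count was 3 without replicate 3 of KO + AAV-GFP, without replicate 2 of KO + AAV-PRDM16 or by limma-voom, and at most 9 over the alternatives. None of the genes in these 4 lists passed an FDR of 0.05 by edgeR. DESeq2 called 11 of the other interferon-gamma targets and 10 of the other GBP and IRG genes, and edgeR called 8 of each without replicate 1 of WT + AAV-GFP. Both settings also called more of all genes, as given above. Effectors and partners of the GTPases, such as the ubiquitin-like *Gabarapl1* (0.04) and *Gabarap* (0.12) that guide these proteins to membranes, had 10 of 17 lower and a median of -0.03, with 7 in either direction at an unadjusted p under 0.05.

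Between the viruses, T cell, NK cell and macrophage markers were lower along with the members. Fewer cells of a type cannot be told apart from less RNA per cell in bulk tissue. All 8 T cell markers were lower with AAV-PRDM16, all at an unadjusted p under 0.05 and with a median log2FC of -3.15, as were all 5 NK cell markers (median -3.56) and all 8 macrophage markers (median -1.15), none at an FDR of 0.05 by edgeR. DESeq2 called 6 T cell, 4 NK cell and 6 macrophage markers, and edgeR called 6, 3 and 5 of them without replicate 1 of WT + AAV-GFP and 5, 1 and 4 without replicate 1 of KO + AAV-GFP. The summed T cell markers were 1.64, 21.0 and 11.4 CPM in the WT + AAV-GFP mice, 1.75, 1.18 and 0.993 CPM in the WT + AAV-PRDM16 mice, 8.04, 8.18 and 29.6 CPM in the KO + AAV-GFP mice and 0.704, 1.37 and 2.04 CPM in the KO + AAV-PRDM16 mice. The same 2 mice were highest, and replicate 1 of WT + AAV-GFP was low, as for the members. *Cd8a*, a marker of cytotoxic T cells, had the highest mean level of the list and a log2FC of -4.05 (SE 0.65, edgeR FDR 0.0527), and *Cd4* had -2.82 (SE 0.76, edgeR FDR 0.125). The NK markers summed to 0.475 to 4.22 CPM in the WT + AAV-GFP mice, 0.0995 to 0.363 CPM in the WT + AAV-PRDM16 mice, 1.87 to 6.91 CPM in the KO + AAV-GFP mice and 0.157 to 0.618 CPM in the KO + AAV-PRDM16 mice, with *Klrk1* at -2.93 (SE 0.71) and *Eomes* at -5.01 (SE 1.10).

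The macrophage markers summed to 36.8, 64.4 and 67.9 CPM in the WT + AAV-GFP mice, 25.9, 32.3 and 30.9 CPM in the WT + AAV-PRDM16 mice, 81.1, 77.1 and 211 CPM in the KO + AAV-GFP mice and 58.5, 50.1 and 54.0 CPM in the KO + AAV-PRDM16 mice. The viruses did not overlap in either genotype. The complement genes *C1qb* (log2FC -1.37, SE 0.27, edgeR FDR 0.0543) and *C1qa* (-1.25, SE 0.29, edgeR FDR 0.0741) of tissue macrophages led the list in level. B cell markers had 4 of 5 lower (median -0.88), with *Cd79a* at -1.29 and *Cd79b* at -1.06, and stayed between 0.424 and 3.40 CPM in sum. Of 6 markers of lymph node stroma only 2 could be tested, and the list summed to 0.251 to 0.983 CPM over the 12 libraries. Its highest expressed genes were *Ccl21a*, at 0.0555 to 0.654 CPM, and *Cxcl13*, at 0 to 0.465 CPM. *Glycam1*, which defines the high endothelial venules of lymph nodes, was at 0 in all 12 libraries. Endothelial markers (median -0.03, *Cdh5* at -0.03, *Kdr* at -0.08) and brown adipocyte markers (median 0.10, *Ucp1* at 0.31, *Fabp4* at 0.09) differed little. In KO + AAV-PRDM16 against WT + AAV-GFP mice, 3 macrophage markers were higher and 5 lower. Their median log2FC was -0.16, against a member median of -1.17, with 0 at an unadjusted edgeR p under 0.05. In KO against WT mice with AAV-GFP all 8 were higher, with a median of 1.07 against a member median of 0.10. Of these, 7 were at an unadjusted edgeR p under 0.05 (9.18% of all genes, either direction). The part of T cell, NK cell and macrophage content in the lower member levels was not tested.

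**Figure D4:**
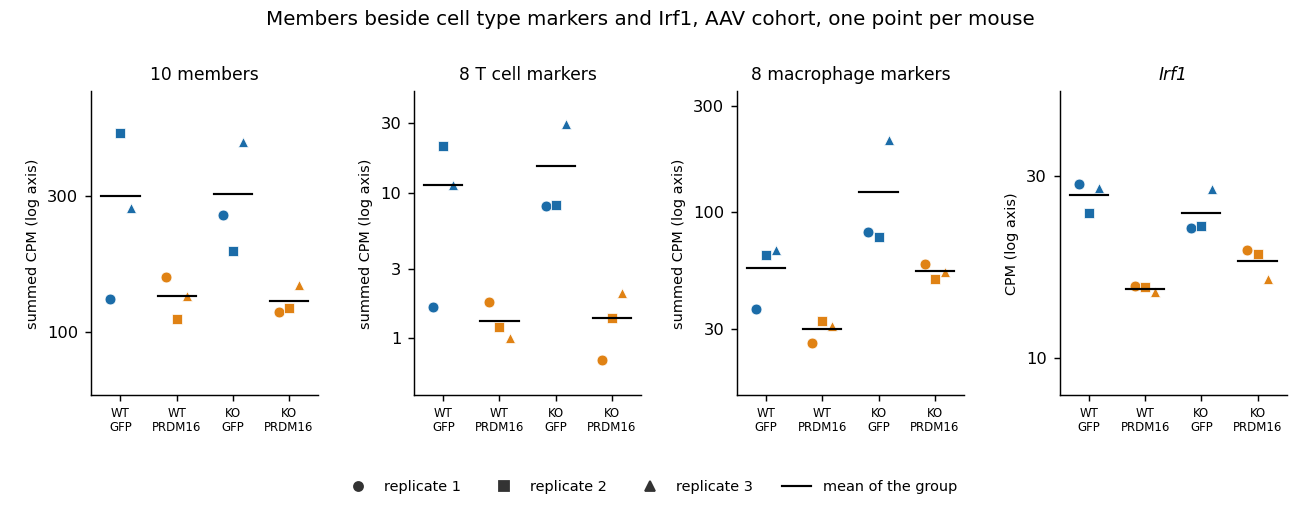
Summed CPM of the 10 members, of 8 T cell markers and of 8 macrophage markers, and CPM of *Irf1*, in the 12 AAV mice (vertical axes, log scale), with a point for each mouse and a line for the group mean of 3. Replicate 1 of WT + AAV-GFP is low for the members (131 CPM) and the T cell markers (1.64 CPM) and the highest for *Irf1* (28.6 CPM).

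The second question is whether loss of CPEB2 changed these genes. In mice with AAV-GFP, 6 members were higher and 4 lower in KO than in WT, with log2FCs from -0.14 (*Iigp1*) to 0.25 (*Irgm1*), none at an unadjusted p under 0.05 by edgeR (9.18% of all genes), none at an FDR of 0.05 (0.0529% of all genes) and none with groups apart (13.4% of all genes). The direction rested on single mice, since all 10 were lower in KO without replicate 3 of KO + AAV-GFP and all 10 higher without replicate 2 of WT + AAV-GFP. With AAV-PRDM16, 4 members were higher and 6 lower, from -0.37 (*Gbp4*) to 0.44 (*Gbp2*), with 0 at an unadjusted p under 0.05 by edgeR (13.7% of all genes) and 0 at an FDR of 0.05 (0.0476% of all genes). The groups were apart for 2 members, *Gbp6*, which was lower in KO, and *Irgm1*, which was higher (22.8% of all genes were apart in one direction or the other). For *Gbp6* the KO mice had 21.7 to 25.8 CPM and the WT mice 26.6 to 35.4 CPM.

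Averaged over viruses, *Gbp2* had 37.2 CPM ± 22.6 (SD, n = 6) in KO and 31.2 CPM ± 22.7 (SD, n = 6) in WT mice, and *Iigp1* 25.0 CPM ± 22.7 (SD, n = 6) and 27.3 CPM ± 32.1 (SD, n = 6). The member log2FCs lay between -0.24 and 0.31, with 4 higher and 6 lower, 0 at an unadjusted p under 0.05 by edgeR (18.3% of all genes) and 0 at an FDR of 0.05 (2.18% of all genes). Upstream of the members, *Ifngr1*, the ligand-binding chain of the interferon-gamma receptor, rose in KO mice. *Ifngr1* had 44.2, 57.2 and 55.1 CPM in the WT + AAV-GFP mice, 39.0, 42.5 and 55.99 CPM in the WT + AAV-PRDM16 mice, 66.7, 62.2 and 76 CPM in the KO + AAV-GFP mice and 78.5, 84.8 and 98.2 CPM in the KO + AAV-PRDM16 mice. All 6 KO mice exceeded all 6 WT mice, and the log2FC was 0.66 (SE 0.11, edgeR FDR 0.0145), called in all 17 alternatives. The other 10 receptors and transducers were not called. Targets of type I interferon had 16 of 16 genes higher in KO with a median of 0.70, of which *Oasl2* was called (0.94, SE 0.22, edgeR FDR 0.0475), and macrophage markers had 8 of 8 higher, of which *Csf1r* (1.02, FDR 0.0349), *C1qb* (1.14, FDR 0.0497) and *Mrc1* (0.88, FDR 0.0264) were called by edgeR, while the member median was -0.01. The part of macrophage content in the level of *Ifngr1* was not tested.

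In the untreated cohort no virus had been given, and the members did not share a direction. *Gbp5*, *Gbp6*, *Gbp3*, *Gbp7* and *Gbp4* were lower in KO and the IRGs and *Gbp2* were higher or level, with a median log2FC of -0.09 against 0.04 over all genes. None passed an FDR of 0.05 by edgeR (0% of all genes), and 3 were lower at an unadjusted p under 0.05 (10.9% of all genes), a count that was 5 without KO replicate 2 and 1 without KO replicate 3. At the study's threshold, which the paper used for this comparison, 0 of 10 members were called, and 1 without KO replicate 2. The share of all genes at this threshold is not given for this comparison, so these counts are not set against it.

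*Gbp5* had 4.09, 4.84, 4.02, 3.79 and 3.69 CPM in the 5 WT mice and 2.08, 3.61, 1.45, 2.94 and 1.55 CPM in the 5 KO mice. Every KO mouse lay below every WT mouse, the only member so placed (0.907% of all genes), though the gap between the highest KO and the lowest WT mouse was small. The log2FC of *Gbp5* was -0.81 (SE 0.31, edgeR FDR 0.305), and the exact permutation test gave p = 0.00794, the smallest possible with 5 mice against 5 and not adjusted for the 10 members. *Gbp6* had 21.6, 22.6, 21.4, 20.7 and 21.9 CPM in WT and 21.5, 11.7, 10.2, 12.4 and 11.1 CPM in KO. The WT mice were tightly grouped, and KO replicate 1, the library with *Cpeb2* in the WT range, was the one KO mouse at the WT level. The log2FC of *Gbp6* was -0.69 (SE 0.23, edgeR FDR 0.305, exact permutation p = 0.0238) and -0.93 (SE 0.18, edgeR FDR 0.1596) without that library.

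*Gbp3* had 9.99, 15.2, 20.5, 14.9 and 15.1 CPM in WT and 10.3, 12.46, 7.86, 13.2 and 5.37 CPM in KO, with a log2FC of -0.62 (SE 0.28, edgeR FDR 0.311, exact permutation p = 0.0556). *Gbp7* had 13.7, 19.0, 12.51, 13.7 and 10.8 CPM in WT and 10.6, 14.4, 6.11, 11.4 and 6.64 CPM in KO (log2FC -0.51, SE 0.27, exact permutation p = 0.0952). In both genes the KO mice were shifted down but overlapped the WT mice. *Gbp4* ranged over 8.87 to 10.9 CPM in WT and 4.96 to 15.9 CPM in KO (log2FC -0.22, SE 0.30), wide in KO and narrow in WT.

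The remaining members had wide and overlapping groups. *Gbp2* had 14.4, 19.6, 21.8, 26.0 and 13.2 CPM in WT and 40.5, 21.99, 13.1, 10.2 and 12.3 CPM in KO (log2FC 0.05, SE 0.37). *Iigp1* had 5.49, 9.14, 20.2, 41.95 and 10.8 CPM in WT and 34.3, 37.5, 6.83, 16.7 and 12.1 CPM in KO (log2FC 0.30, SE 0.57), so that WT replicate 4 and KO replicates 1 and 2 stood high. *Irgm1* had 23.1 CPM in the same WT mouse and 24.8 and 20.0 CPM in the same KO mice, against 6.45 to 13.3 CPM in the other 7 (log2FC 0.18, SE 0.43). These 3 mice also had the highest summed macrophage markers, 162 CPM in WT replicate 4 and 243 and 172 CPM in KO replicates 1 and 2, against 29.3 to 92.6 CPM in the other 7, while T cell markers summed to at most 4.49 CPM in any untreated mouse. The part of macrophage content in these levels was not tested. *Igtp* (log2FC 0.27, SE 0.27) and *Irgm2* (0.05, SE 0.26) had 4.70 to 13.8 CPM and 8.41 to 19.3 CPM over the 10 mice, with KO replicate 1 the highest for both.

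The 5 members with a log2FC above 0 in the untreated cohort depended on KO replicate 1 and on WT replicates 1 and 2. Without KO replicate 1, 8 of 10 members were lower in KO, and without WT replicates 1 and 2, or by limma-voom with quality weights, 9 of 10 were lower, with 0 at an FDR of 0.05 in each case. The log2FC of *Gbp5* stayed between -1.01 and -0.67, that of *Gbp6* between -0.93 and -0.61 and that of *Gbp3* between -0.75 and -0.47 over all alternatives. With Y-linked transcripts as a covariate 5 of 10 members were lower, with a log2FC of -0.68 (SE 0.31) for *Gbp5*, -0.73 (SE 0.26) for *Gbp6* and -0.64 (SE 0.30) for *Gbp3*, each at an edgeR FDR of 0.576. Skeletal muscle markers summed to 6.79 to 5821 CPM in these 10 libraries. The highest sums were 5232 and 5821 CPM in KO replicates 1 and 2 and 2941 CPM in WT replicate 3, while WT replicate 4 had 12.8 CPM. The part of muscle content in the member levels was not tested. Of the other GBP and IRG genes 7 were higher and 8 lower in untreated KO mice, with 1 at an unadjusted p under 0.05. Other targets of interferon-gamma were higher in 14 of 15 (median 0.68), with 3 at an unadjusted p under 0.05, and macrophage markers were higher in 8 of 8 (median 0.83), with none at an FDR of 0.05 by edgeR.

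**Figure D5:**
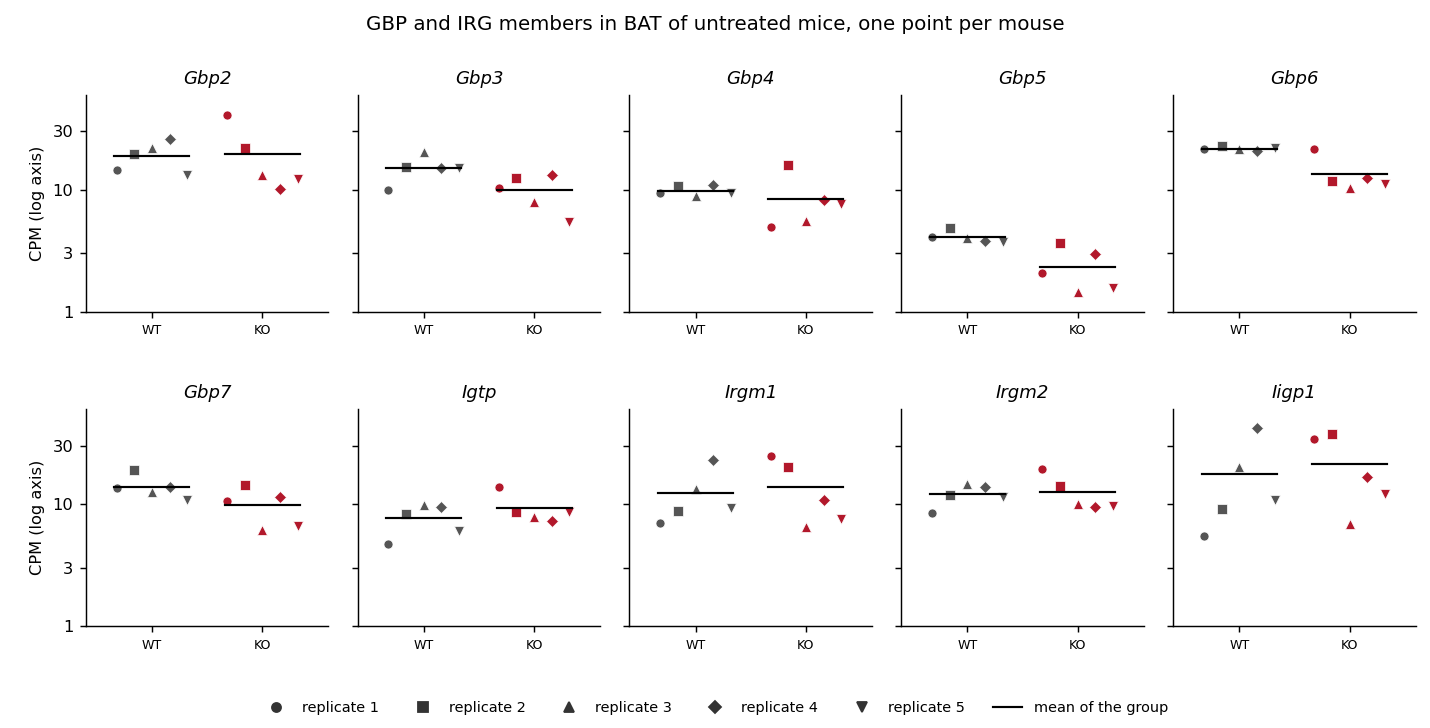
Level of each member in CPM (vertical axis, log scale) in the 10 untreated mice, with a point for each mouse, shapes for the replicate numbers and a line for the group mean of 5. The 5 KO points of *Gbp5* lie below its 5 WT points, 4 of 5 KO points of *Gbp6* lie below its WT points, and WT replicate 4 and KO replicates 1 and 2 lie highest for *Irgm1* and *Iigp1*.

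The members varied together in the AAV cohort. The correlation of a member's log2 CPM with the mean of the other 9, over 12 libraries that share the group structure above, was 0.91 to 0.99 for 9 members and 0.60 for *Gbp4*. The fold between the highest and the lowest library was 15.6 for *Iigp1*, 9.64 for *Igtp* and 2.19 for *Gbp4*. In the untreated cohort, over 10 libraries, the correlations were lower, from 0.31 for *Gbp4* and 0.37 for *Igtp* to 0.78 for *Irgm1*, and the widest range was again that of *Iigp1*, 7.64-fold. These are descriptions of the libraries, which share their tissue and depth within a cohort, and carry no test.

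The genes whose levels were most like the mean of the standardised members in the AAV cohort were *Zbp1* (r = 0.975 over 12 libraries), a sensor of Z-form nucleic acids, the phosphatase gene *Ptpn5* (0.971), the T cell chemokine gene *Ccl5* (0.968), the myeloid kinase gene *Fgr* (0.967), the immunoproteasome gene *Psmb8* (0.961), *Gm4841* (0.959), the antiviral GTPase gene *Mx1* (0.957) and *Gbp10* (0.956). In the untreated cohort, over 10 libraries, they were *Cgas* (r = 0.973), the cytosolic DNA sensor, the replication gene *Mcm6* (0.960), *Six4* (0.948), the mesenchymal receptor gene *Pdgfra* (0.943), *Spdl1* (0.941), *Sh3yl1* (0.940), *Abcg3* (0.937) and the collagen receptor gene *Ddr2* (0.935). No gene was in both sets of 8. Of the 50-base exon stretches of *Gbp6*, 45.95% also occur in *Gbp10*, so part of the likeness of *Gbp10* can come from shared reads.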

How the data were processed

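RNA from brown adipose tissue of 22 mice, 1 library per mouse, was read as counts per gene. Per the labels, the authors used bcl2fastq 2.20, Trimmomatic 0.36 and HISAT2 on GRCm38.p6, and they deposited whole-number counts for 2 cohorts. Symbols came from GENCODE M21 for 55227 of 55487 identifiers. Each cohort was filtered (filterByExpr), TMM-scaled and fitted with edgeR 4.0.16 (quasi-likelihood test, R 4.3.3), with Benjamini-Hochberg adjustment over all genes tested and a threshold of 0.05, all groups of a cohort sharing 1 fit. P-values measure the spread between these mice, and every member had at least 124 reads in each library. CPM values are TMM-scaled, and log2 CPM used a prior count of 2. Exact permutation tests were two-sided. The scripts were tested on simulated counts. The results were also computed with DESeq2 1.42.0, with RLE scaling, without the filter, with limma 3.58.1 and voom weights, with a replicate block, with only the groups compared, with a Y-linked covariate and with libraries left out. Members and lists were chosen with earlier results of these data known. Besides the 10 members, the rule named the 2 highest expressed genes of each list, up to 3 passing the threshold, *Cpeb2* and *Prdm16*, and per cohort the 8 protein-coding genes with the highest Pearson correlation to the standardised members. A gene that the rule names is not reported here. Other genes named for a check, among them *Socs3*, *Xist*, *Glycam1* and *Gm43302*, were chosen after their values were seen. Promoters are RefSeq windows.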

Additional observations from a re-analysis of the deposited data

Results flagged for a closer look

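In the untreated KO group 2 values stood far from the other 4 mice, with a gap to the nearest mouse above Dixon's limit of 0.71 of the group's range. *Gbp6* was highest in KO replicate 1 at 21.5 CPM (gap 0.811 of the range), and *Igtp* was highest in the same mouse at 13.8 CPM (gap 0.788 of the range). In this library *Cpeb2* was at 11.7 CPM, within the WT range. The 20 groups of 5 were examined, 1 for each member and genotype, and chance alone gives about 1 such value in 20 groups. Groups of 3 in the AAV cohort were not examined in this way.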

How the results depend on the processing

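At an FDR of 0.05 by edgeR 0 of 10 members were called in each comparison. DESeq2 called 1 member for the virus in WT, 1 in KO and 8 averaged over genotypes, and no filter on low counts gave 2 in the average, *Gbp2* and *Iigp1*. Without the filter 143 of 29348 genes were lower and 1 higher in the average at this FDR, and DESeq2 also called more of all genes. Leaving out 1 library in turn gave 0 to 9 in the average, where 9 came without replicate 1 of WT + AAV-GFP. At a fold of at least 2 and an FDR of at most 0.5, the counts were 2 in WT, 4 in KO, 3 for KO + AAV-PRDM16 against WT + AAV-GFP and 5 in the average. With all libraries the shares of all genes were 1.31%, 2.03%, 0.603% and 4.24%, in that order. Leaving out 1 library in turn moved the member counts to 0 to 8, 0 to 8, 0 to 7 and 3 to 7. The 3 came without replicate 2 of WT + AAV-GFP, and libraries outside the groups compared moved the counts too. For the fits with a library left out, the share of all genes at this threshold was not computed. The log2 fold change of *Gbp4* in WT turned to 0.14, 0.12 and 0.04 without replicate 2 of WT + AAV-GFP and replicates 2 and 3 of WT + AAV-PRDM16, within a leave-one-out range of -0.44 to 0.14. The cause was not tested. The other 158 counts of called members, over 9 comparisons and their alternatives, were 0, and *Irf1* lost its call in 11 of 17 alternatives. In the average all 10 members stayed lower in every setting, with leave-one-out medians of -1.30 to -0.84.

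The replicate number did not pair the mice. Deviations from the group means correlated at -0.091 to 0.154 over 18 same-numbered pairs in the AAV cohort and at -0.292 to 0.111 over 5 in the untreated cohort, 3 of 12 and 1 of 10 libraries correlated best with a library of their own number, and a replicate block left 0 members called in all 9 comparisons. With 3 mice per AAV group, only differences between genotypes in the virus effect well above the standard errors given could have been detected.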
